A study of Danio rerio with 63 samples.

Results

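The comparison described here is that of the hypothalamus of cyp19a1b-mutant and wild-type (WT) male zebrafish. Its members are the 11 libraries of male hypothalamus among the 63 libraries of the series, chosen by the region, sex and genotype in their labels, and all genes counted in them. They hold 5 pools of mutant males and 6 pools of WT males, each pool being the hypothalami of 3 fish of the same sex and genotype, so 15 mutant and 18 WT fish in all. To see how far results rest on single mutant pools, each pool was left out in turn and values are given per pool for many genes. The outcome without a pool is given for some genes only.

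Aromatase converts androgens into estrogens. In teleost fish the brain form of the enzyme, aromatase B, is encoded by cyp19a1b and is made by radial glia, the progenitor cells that line the ventricles and give rise to new neurons in adults. The hypothalamus holds a large share of these cells, around the lateral and posterior recesses of the third ventricle, next to the neurons that control feeding, reproduction and the pituitary.

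The study compared mutants with WT fish of both sexes in the olfactory bulbs (OB), the telencephalon (Tel) and the hypothalamus, to learn which transcripts depend on brain aromatase. All fish were untreated adults, of an age not given in the sources used here. WT fish were of the AB strain. The mutants, labelled ko, came from 1 line made with TALENs, nucleases that cut a chosen sequence, and carried a short deletion in the second exon of cyp19a1b that shifts the reading frame. The study describes brain aromatase activity as reduced in this line, so the mutants are not a model of absent enzyme. Whether WT fish were siblings of the mutants, and whether the mutants were homozygous, is not given in the sources used here. Counts came from BRB-seq (bulk RNA barcoding and sequencing), which reads the 3′ end of each transcript and counts unique molecular identifiers (UMIs), 1 per captured molecule.

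Depth differed between the genotypes without overlap. WT male libraries held 470915 to 934685 UMIs, and mutant libraries 217705 in pool A1, 323148 in B1, 103238 in B2, 261517 in C1 and 189110 in C2. A count of 3 UMIs corresponded to 3.47 to 26.9 counts per 1000000 UMIs (CPM) in these libraries, so rare transcripts were measured less precisely in mutants. Markers of the tissue were compared between the genotypes: hypothalamic transcription factors summed to 0.0680 to 0.107% of UMIs in WT pools and 0.0807 to 0.106% in mutants, and feeding and arousal neuropeptides to 0.252 to 0.467% and 0.280 to 0.504%. No other region was set beside these shares, so they do not check the tissue label. Marker genes of neighboring telencephalon, thalamus and midbrain, of pituitary, retina and red blood cells gave 0 differentially expressed genes (DEGs) among the 45 of them that were tested in edgeR's quasi-likelihood test (2 higher and 4 lower at an unadjusted p of 0.05 or less) and 0 with DESeq2. Pituitary genes summed to 0.0444% of UMIs in mutant pool C2 and to 0.00972% or less in the other 10 pools. Of the 12 skeletal muscle markers tested, stac3 alone was a DEG (8.3%). Over all genes tested, 1.93% were DEGs, and 7.02% were higher and 7.91% lower at an unadjusted p of 0.05 or less. The summed share of the muscle markers was 0.0603 to 0.0740% of UMIs in mutants and 0.0497 to 0.126% in WT pools. Pools were separate groups of fish, so p-values measure the spread between pools.

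The mutated gene itself was not a DEG, and the groups overlapped. In WT males, cyp19a1b ran from 491 to 1587 CPM (median 779), and in mutant males it was 93.7 CPM in A1, 1026 in B1, 475 in B2, 598 in C1 and 561 in C2. Pool A1 lay far below every other library, B2 just below the lowest WT pool, and B1, C1 and C2 within the WT range. The log2 fold change was -0.74 ± 0.34 (SE), with an adjusted p of 0.303, and ran from -1.09 to -0.46 with each of the 11 pools left out. The same 3 fish of pool A1 also had a low level in the Tel, where the mutant pools held 49.5 CPM in A1, 1367 in B1, 1096 in B2, 938 in C1 and 1001 in C2 and WT pools 1089 to 1863 CPM. In WT male pool B2 of the Tel, 1 UMI was worth 24.5 CPM, so levels in that library were measured less precisely. A frameshift leaves the 3′ end of a transcript countable, so the counts of cyp19a1b do not check the genotype labels.

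**Figure D1:**
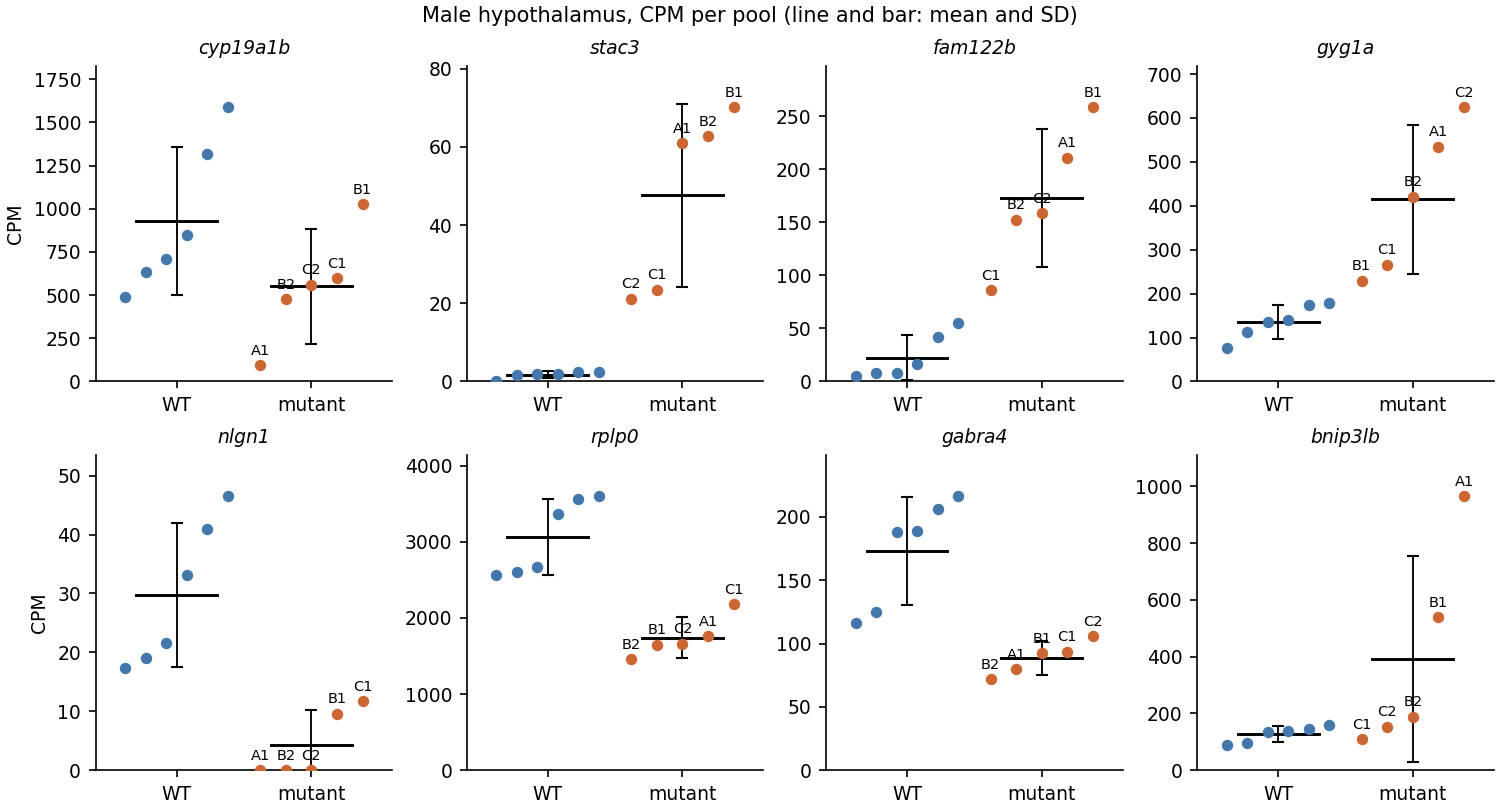
CPM of 8 genes in each pool of the male hypothalamus, with WT pools in blue and mutant pools in orange (letters name the mutant pools). Lines and bars give the mean and SD. The 5 mutant pools of stac3, fam122b and gyg1a lie above the 6 WT pools, those of nlgn1, rplp0 and gabra4 lie below them, and cyp19a1b and bnip3lb overlap between the groups.

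Of 6463 genes with enough counts to be tested, 125 were DEGs (1.93%), which had to differ by 1.5-fold or more and to reach 0.05 in edgeR's quasi-likelihood test after Benjamini-Hochberg adjustment. Mutants were higher in 36 of them (0.557%) and lower in 89 (1.38%). The downregulated genes were led in number by the proteins of the cytosolic ribosome, and also held the synaptic genes nlgn1 and gabra4. The upregulated genes held stac3, the glycogenin gene gyg1a, the Notch genes nrarpa and her4.3, and a set with the tumor suppressor gene men1 and the axon guidance receptor gene robo2. At an unadjusted p of 0.05 or less, 965 genes passed (14.9%), 454 higher (7.02%) and 511 lower (7.91%), and the median log2 fold change over all genes tested was 0.01. CPM did not overlap between the mutant and WT pools in 193 genes (2.99%), 69 of which were DEGs. In these bulk samples, fewer cells of a type and less RNA per cell cannot be told apart.

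**Figure D2:**
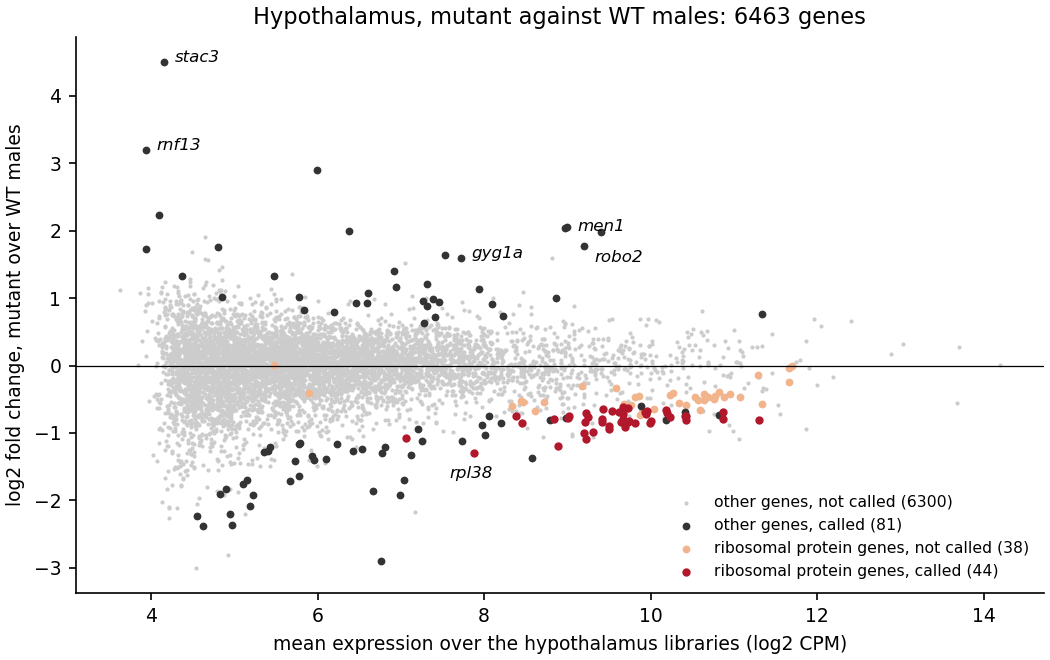
Log2 fold change of mutant over WT males against mean expression (log2 CPM), 1 point per gene, for the 6463 genes tested. The 44 ribosomal protein genes called as DEGs (red) and the 38 not called (light orange) form a band below 0 at high expression, while the other 81 DEGs (black) lie on both sides.

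Transcripts for proteins of the cytosolic ribosome, the machine that translates mRNA, gave the largest number of calls of any list, all of them lower in mutant males. All 82 of these genes were abundant enough to be tested, and 44 of them were DEGs, all lower, which is 53.7% of the list against 1.38% of all genes tested. At an unadjusted p of 0.05 or less, 74 were lower and 0 higher. The log2 fold change was below 0 in 81 of the 82, with a median of -0.68 against 0.01 over all genes, so mutants held a median of 0.626 times the WT level. The DEGs included 25 of 47 genes of the large subunit (named rpl) and 18 of 34 of the small subunit (rps), and their log2 fold changes ran from -1.29 to -0.61. The remaining DEG of the list was rack1, a scaffold on the small subunit.

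The summed share of these transcripts showed which pools carried the difference. It ran from 8.66 to 10.8% of UMIs in WT males (median 9.86%), and was 5.44% in mutant pool A1, 5.92% in B1, 6.56% in B2, 9.22% in C1 and 6.91% in C2. Pools A1, B1, B2 and C2 lay below all WT pools, and C1 lay inside the WT range. In each of the 44 DEGs of this list, those 4 pools were below the lowest WT pool, while C1 was below it in 25.

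**Figure D3:**
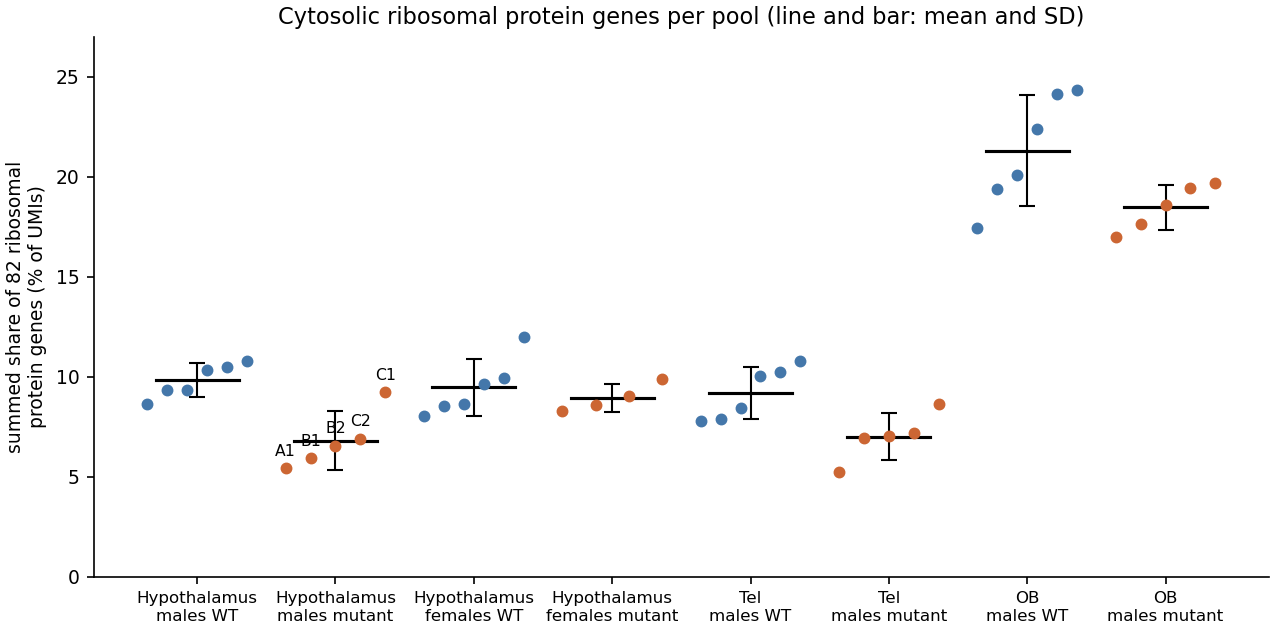
Summed share of the 82 cytosolic ribosomal protein genes, in percent of UMIs, in each pool of males in 3 regions and of females in the hypothalamus (WT blue, mutant orange; lines and bars give the mean and SD). In the male hypothalamus 4 of 5 mutant pools lie below the WT range of 8.66 to 10.8%, and C1 lies in it at 9.22%.

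In the 4 genes described next, C1 was the highest of the mutant pools. The largest change was that of rpl38, with 215 to 381 CPM (median 308) in WT males and 89.0 CPM in A1, 118 in B1, 98.5 in B2, 191 in C1 and 116 in C2 in mutants. All mutant pools lay below all WT pools, with C1 nearest to them, and the log2 fold change was -1.29 ± 0.23 (adjusted p = 0.00712). The acidic stalk protein gene rplp0 ran from 2559 to 3602 CPM (median 3019) in WT males and was 1757 CPM in A1, 1648 in B1, 1459.8 in B2, 2183 in C1 and 1661 in C2 in mutants. Again no mutant pool reached the WT range, and C1 was the highest of the mutants (log2 fold change -0.81 ± 0.15, adjusted p = 0.00793). In rps29 the level of C1 was within rounding of the lowest WT pool, with 437 to 732 CPM (median 658) in WT pools and 253 CPM in A1, 226 in B1, 179 in B2, 437 in C1 and 254 in C2 in mutants (log2 fold change -1.19 ± 0.23, adjusted p = 0.00842). Values of rps21 were 599 to 891 CPM (median 760.3) in WT pools and 328 CPM in A1, 328 in B1, 296 in B2, 562 in C1 and 333 in C2 in mutants, so that the groups did not overlap and C1 was the nearest to the WT range (log2 fold change -0.996 ± 0.19, adjusted p = 0.00793).

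Genes next to the ribosome in function were also among the downregulated DEGs, although they stood on no list and were picked once their values were known. They were faua, which encodes a ribosomal protein fused to a ubiquitin-like protein, the initiation factor genes eif3d and eif2s3, and naca, whose product binds nascent chains. Their log2 fold changes were -0.81 ± 0.18 for faua, -0.85 ± 0.21 for eif3d, -1.04 ± 0.24 for eif2s3 and -0.60 ± 0.16 for naca. The gene for the translation repressor 4E-BP1, eif4ebp1, which binds the cap-binding factor eIF4E, was upregulated. It ran from 167 to 268 CPM (median 193) in WT pools and was 356 CPM in A1, 306 in B1, 412 in B2, 352 in C1 and 497 in C2 in mutants, all above the WT pools (log2 fold change 0.91 ± 0.19, adjusted p = 0.0163).

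Other large complexes gave 0 DEGs in edgeR's test, against 1.93% of all genes tested. At an unadjusted p of 0.05 or less, 7.02% of all genes were higher and 7.91% lower. Of 90 nuclear genes of oxidative phosphorylation tested, 0 were DEGs, 6 were higher and 6 lower at an unadjusted p of 0.05 or less, and the median log2 fold change was -0.01. Of 68 genes of the mitochondrial ribosome 0 were DEGs (3 higher and 3 lower at that p, median 0.06), and of 38 proteasome genes 0 (2 higher and 1 lower, median 0.13). With DESeq2 these 3 lists also held 0 DEGs, and with limma-voom 3, 0 and 1, all lower, while the ribosomal list held 50 and 57.

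The number of ribosomal genes called depended on the libraries in the fit, the tool and single pools. It was 23 with only the 11 male libraries, 6 with all 12 groups and 1 with rlog values and limma, against 44. Without C1, 61 ribosomal genes were DEGs, among them all 44 found with every pool. Without A1 the number fell to 8, without B1 to 9, without C2 to 9 and without B2 to 19. Leaving out WT pools gave 17 to 48 ribosomal DEGs, with 17 without B1, 17 without C2 and 26 without C1. These are counts at a threshold, and fold changes could move less. In rpl38 and rplp0, which stayed DEGs whichever pool was left out, log2 fold changes ran from -1.51 to -1.18 and from -0.89 to -0.75. With counts thinned so that no library exceeded the median total of the mutant males, 21 were called and the median log2 fold change of the list was -0.63. With the 3 mutant pools of lowest total left out, only B1 and C1 remained, 0 genes passed in edgeR's test (699 of 7790 at an unadjusted p of 0.05 or less), and the median of the list was -0.49. That fit left out 6 of the 21 hypothalamus libraries, mutant female pools A1, A2 and B1 among them, so C1 was its only mutant female library. Since the totals of mutant and WT pools did not overlap, genotype and depth cannot be told apart beyond the thinning.

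Among genes whose mutant and WT pools did not overlap, the largest rise was that of stac3, an adaptor of excitation-contraction coupling in skeletal muscle. It was nearly absent in WT males, with 0 to 2 UMIs per library (0 to 2.48 CPM), and mutant pools held 60.9 CPM in A1, 70.12 in B1, 62.7 in B2, 23.4 in C1 and 21.2 in C2. Every mutant pool stood above every WT pool, and A1, B1 and B2 were well above C1 and C2. The log2 fold change was 4.50 ± 0.70 (adjusted p = 0.00498), a value that depends on how few UMIs the WT libraries held. DESeq2 gave stac3 an unadjusted p of 7.50e-09 but no adjusted p, as it did for 1006 of the 6463 genes and 7 of the 125 DEGs, and its counts of DEGs leave such genes out. In the Tel of the same fish, mutants held 56.6 CPM in A1, 49.9 in B1, 62.7 in B2, 5.36 in C1 and 19.4 in C2 and WT pools 0 to 2.64 CPM, so the same pools were high and C1 and C2 were low again.

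The next rises were those of rnf13, a RING-type ubiquitin ligase gene, and fam122b. In WT males rnf13 ran from 0 to 15.02 CPM (median 1.49), with 5 pools at 1.94 CPM or less, and mutant pools held 51.5 CPM in A1, 41.4 in B1, 44.8 in B2, 19.5 in C1 and 42.3 in C2. The C2 pool of the WT males was the only one of that group near the mutants, of which C1 was the lowest (log2 fold change 3.20 ± 0.74, adjusted p = 0.0237). For fam122b, WT pools gave 5.42 to 55.4 CPM (median 12.11) and mutants 210.9 CPM in A1, 258 in B1, 152 in B2, 85.9 in C1 and 159 in C2. Mutant C1 was the nearest to the WT pools (log2 fold change 2.89 ± 0.66, adjusted p = 0.0229). Glycogenin, the protein on which glycogen is primed, is encoded by gyg1a, which ran from 76.9 to 179 CPM (median 138) in WT pools and was 534 CPM in A1, 229 in B1, 421 in B2, 266 in C1 and 624 in C2 in mutants. No mutant pool overlapped with WT, B1 and C1 were the lowest, and the log2 fold change was 1.59 ± 0.30 (adjusted p = 0.00793). In the Tel all mutant pools were also above all WT pools for gyg1a, at 263 to 504 CPM against 73.5 to 156 CPM. The lowest of these WT values, that of pool B2, was 3 UMIs.

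Smaller rises without overlap were found in single genes of different functions. The feedback regulator of Notch signaling nrarpa gave 84.3, 51.0, 107, 46.9 and 95.2 CPM in mutant pools A1, B1, B2, C1 and C2, against 13.9 to 41.6 CPM (median 31.1) in WT pools (log2 fold change 1.32 ± 0.35, adjusted p = 0.0471). For lin7c, a scaffold of cell junctions and synapses, the mutant values in the same order were 365, 446, 439, 281 and 571 CPM and the WT values 152 to 252 CPM (median 176) (log2 fold change 1.13 ± 0.23, adjusted p = 0.0116). Mutant C1 was the lowest of the 5 in both nrarpa and lin7c. Other rises of this kind were those of add3a, which encodes the membrane skeleton protein adducin (log2 fold change 1.17 ± 0.31), the tRNA methyltransferase gene thumpd3 (1.33 ± 0.35) and the sterol carrier gene scp2a (1.02 ± 0.27), with adjusted p of 0.0471, 0.0458 and 0.0464.

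Falls without overlap outside the ribosome were also those of single genes. The postsynaptic adhesion protein gene nlgn1 gave 0, 9.56, 0, 11.7 and 0 CPM in A1, B1, B2, C1 and C2, against 17.3 to 46.5 CPM (median 27.4) in WT pools (log2 fold change -2.38 ± 0.58, adjusted p = 0.0301). It was at 0 UMIs in 3 mutant pools. The ribosome-bound chaperone gene dnajc2 gave 4.69, 9.56, 8.96, 3.91 and 0 CPM against 12.14 to 39.7 CPM (median 27.7) (log2 fold change -2.23 ± 0.50, adjusted p = 0.0229), and urm1, a ubiquitin-like protein that modifies tRNA, 9.37, 9.56, 8.96, 15.6 and 0 against 29.2 to 38.1 CPM (median 32.7) (log2 fold change -1.83 ± 0.39, adjusted p = 0.0183). In urm1 the WT pools were close together and each mutant pool was under 16 CPM. No mutant pool held more than 5 UMIs in these genes or in those named next, so the sizes of these falls rest on few UMIs. Further genes of this group were rab11fip4a, an effector of recycling endosomes (log2 fold change -2.20 ± 0.53), the vesicle-associated kinase-like gene camkvb (-2.09 ± 0.51), the membrane protein gene itm2ca (-1.91 ± 0.44), the phosphate transporter gene slc20a2 (-1.75 ± 0.41), zgc:77398 (-2.37 ± 0.57) and zgc:92912 (-1.92 ± 0.48), with adjusted p from 0.0243 to 0.0329.

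Of the 125 DEGs, 13 stayed DEGs whichever of the 11 pools was left out. They included stac3, gyg1a, men1, robo2 and tlr19, which were higher, and rpl21, rpl27, rpl38, rplp0, rps21, rps24 and rps29, which were lower. The sign of the fold change was kept in all 125 in each of the 11 fits. The number of DEGs was 21 without mutant A1, 26 without C2, 38 without B1, 58 without B2 and 150 without C1, of which 19, 24, 28, 54 and 100 were among the 125. Without 1 WT pool the number ran from 44 (without B1) to 133 (without A1), with 47 without C2 and 74 without C1. Over the 5 mutant pools, 16 DEGs were lost in every fit and 56 were kept in 1 fit of 5. Such counts depend on genes near the threshold and do not measure how far fold changes moved. The largest move of a DEG's log2 fold change when a mutant pool was left out had a median of 0.17 over the 125 (highest 1.19).

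**Figure D4:**
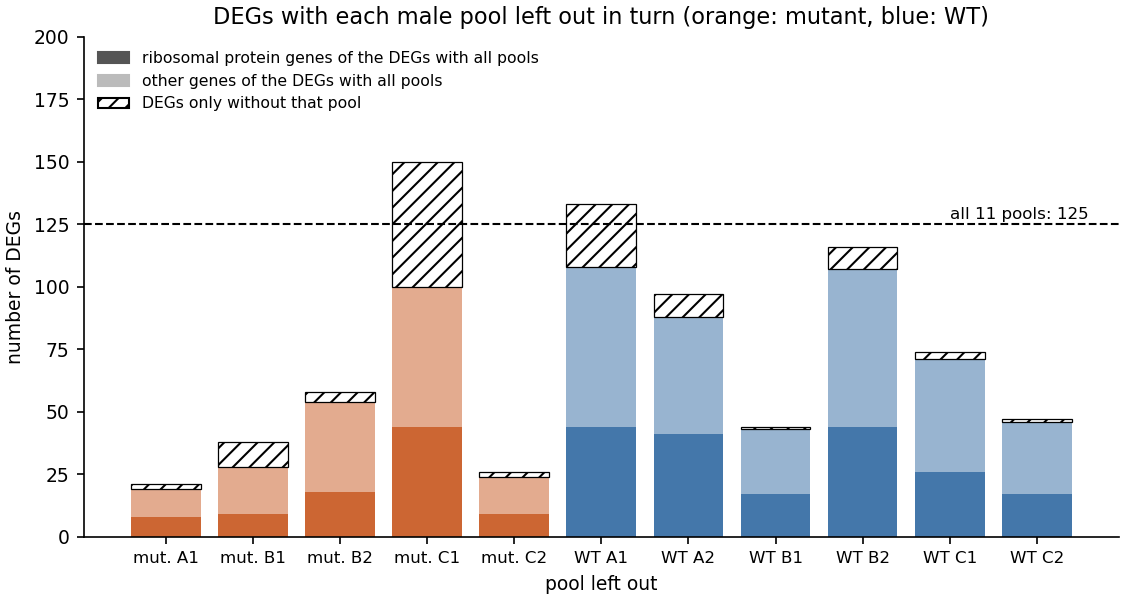
Number of DEGs when each male pool of the hypothalamus was left out in turn (orange for mutant, blue for WT pools). Dark parts are ribosomal protein genes and light parts other genes among the 125 DEGs found with all pools (dashed line), and hatched parts are DEGs found only without that pool. The bars without mutant A1 (21), C2 (26) and B1 (38) are the lowest, and that without C1 (150) is the highest.

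Over the 125 DEGs, pool C1 was the mutant pool least like the others. It lay beyond the WT range, in the called direction, in 85 of the 125 DEGs, against 117 to 122 for the other 4 pools. Its median deviation from the mean of the other mutants over the DEGs was -0.55 (log2, in the direction of the call), against 0.07 to 0.24 for the others. These values describe DEGs that were chosen with C1 in the fit. Over all genes compared in pairs of pools, the chi-square per degree of freedom of C1 was 2.71 with C2, 4.11 with B2, 9.08 with B1 and 10.98 with A1. A1 and C2 were at 6.53. This value was computed on raw counts and rises with the totals of a pair, so it does not rank the distances between pools. The pool that moved the fold change most when left out was C1 in 66 DEGs, A1 in 25, B1 in 20, C2 in 11 and B2 in 3. The 50 genes that became DEGs without C1 included 17 ribosomal genes, and the total of C1 (261517 UMIs) was the second highest of the mutant pools.

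In 5 upregulated genes the pools stood in nearly the same order, called the men1 profile here. These genes were put together after their values were seen. They were men1, which encodes the chromatin-bound tumor suppressor menin, robo2, a receptor for Slit proteins in axon guidance, stab1, a scavenger receptor, the Toll-like receptor gene tlr19 and the glutathione transferase gene gstm.3. In men1, WT pools ran from 135 to 359.8 CPM (median 307) and mutant pools were 2638 CPM in A1, 1310.0 in B1, 940.3 in B2, 285 in C1 and 772 in C2. In robo2, WT pools ran from 247 to 441 CPM (median 386) and mutants were 2689.6 CPM in A1, 1253 in B1, 1155 in B2, 320.3 in C1 and 830.3 in C2. In every one of the 5 genes, A1 was the highest mutant pool, B1 the second and C1 the lowest, 4 mutant pools were above all WT pools, and C1 was in the WT range.

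The log2 fold changes were 2.05 ± 0.37 for men1, 1.78 ± 0.32 for robo2, 1.97 ± 0.39 for stab1, 1.99 ± 0.35 for tlr19 and 2.04 ± 0.39 for gstm.3, with adjusted p of 0.00712, 0.00712, 0.0109, 0.00712 and 0.00793. Without A1, the values fell to 1.53 for men1 and 1.28 for robo2, and stab1 (adjusted p = 0.0626) and gstm.3 (adjusted p = 0.0580) were no longer DEGs. WT pools also shared a pattern, with B2 the lowest of the 6 in men1, robo2, stab1, tlr19 and gstm.3. No pair of the 5 genes lay within 100 protein-coding genes of each other in the zebrafish assembly GRCz12tu. In the Tel of the same fish, men1 was 2022 CPM in A1, 1848 in B1, 974 in B2, 365 in C1 and 419.8 in C2 in mutants against 221 to 994 CPM in WT pools, so that only A1 and B1 were above the WT range there. The lowest of these WT values, that of pool B2, was 9 UMIs.

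**Figure D5:**
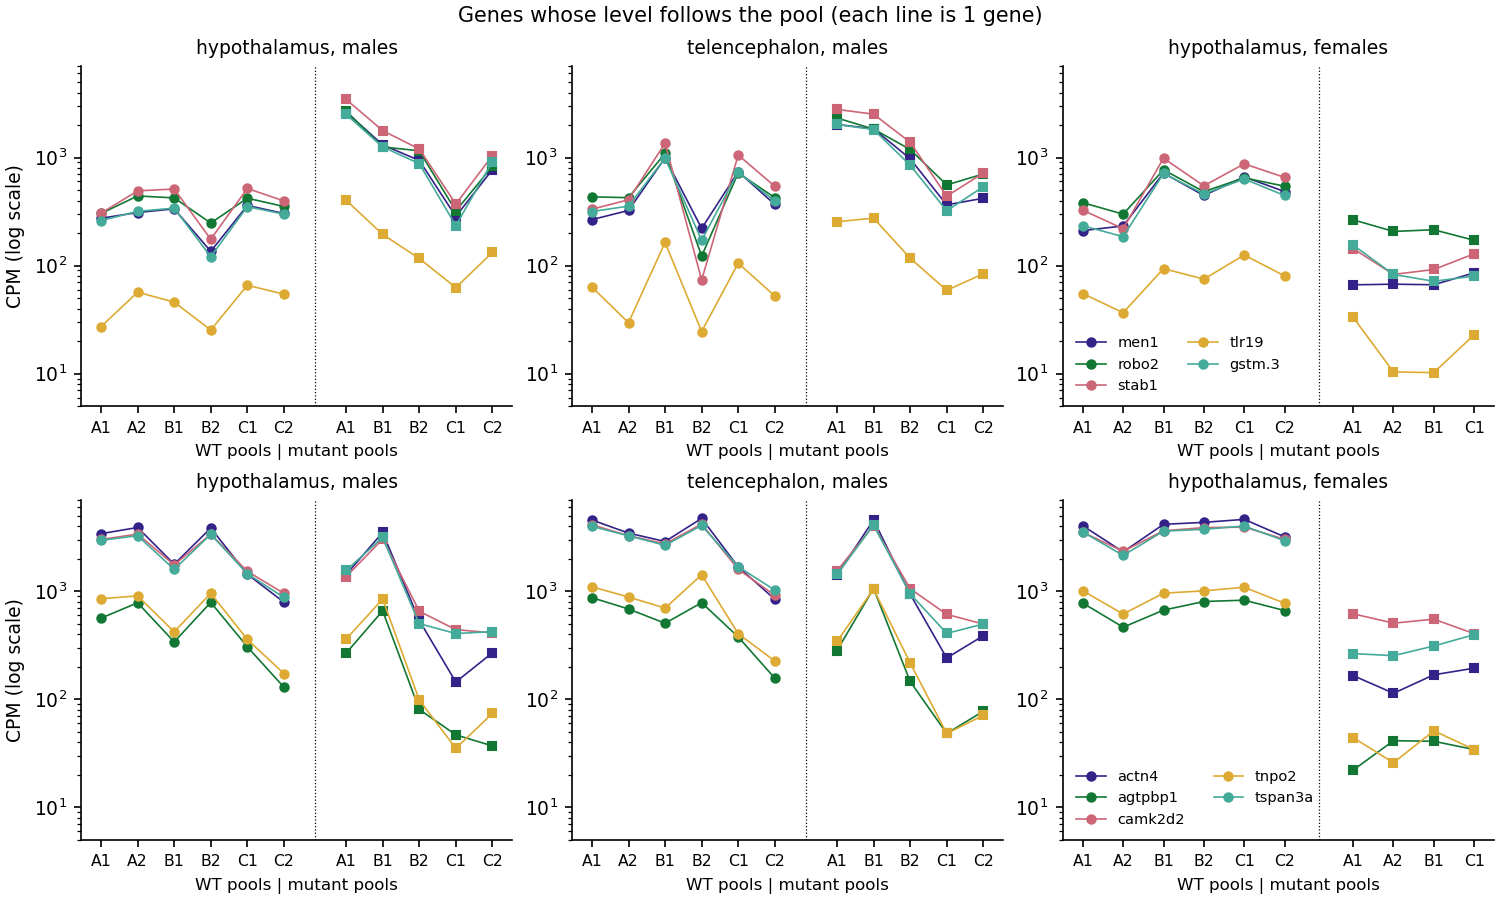
CPM (log scale) of 5 genes with the men1 profile (upper row) and 5 genes with the actn4 profile (lower row) in each pool: males in the hypothalamus and the Tel, and females in the hypothalamus (circles WT, squares mutant, 1 line per gene). In males men1 falls from 2638 CPM in mutant pool A1 to 285 CPM in C1 and actn4 is highest in mutant pool B1, while in females all 4 mutant pools are low in both rows.

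Another profile, also put together after the values were seen, held actn4, which encodes an actin-crosslinking alpha-actinin, agtpbp1, a tubulin-deglutamylating enzyme, the CaM kinase gene camk2d2, the nuclear import receptor gene tnpo2 and the tetraspanin gene tspan3a. The study's text names these genes. None of the 5 was a DEG with all pools, and mutant B1 lay in the upper part of the WT range. In WT males actn4 ran from 793 to 3897 CPM (median 2597), and mutants held 1424 CPM in A1, 3506 in B1, 537 in B2, 145 in C1 and 269.7 in C2. In each of the 5 genes B1 was the highest mutant pool and A1 the second, and the other 3 lay below all WT pools.

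With all pools, log2 fold changes were -1.09 ± 0.50 for actn4, -1.07 ± 0.48 for agtpbp1, -0.97 ± 0.38 for camk2d2, -1.04 ± 0.49 for tnpo2 and -0.88 ± 0.41 for tspan3a (adjusted p 0.215 to 0.318). Without B1, all 5 were DEGs, at -2.08, -2.13, -1.69, -2.07 and -1.62 in the same order, with adjusted p of 0.0238 to 0.0342. These 5 were among 10 genes that became DEGs without B1. C2 was the lowest WT pool in all 5 genes, at 793 CPM for actn4. In the Tel, actn4 was 1414 CPM in A1, 4575 in B1, 941 in B2, 241 in C1 and 388 in C2 in mutants, so B1 was again at the WT level (844 to 4731 CPM).

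Some DEGs outside these profiles also varied widely between mutant pools. The mitophagy receptor gene bnip3lb was 965 CPM in A1, 539 in B1, 188 in B2, 109 in C1 and 153 in C2 in mutants against 89.0 to 161 CPM (median 135) in WT pools. Pools A1 and B1 were far above WT and C1 and C2 inside its range, so the log2 fold change of 1.64 ± 0.36 (adjusted p = 0.0210) fell to 1.01 without A1 (adjusted p = 0.112). The gene of the second largest RNA polymerase I subunit, polr1b, was 4.69 CPM in A1, 3.19 in B1, 26.9 in B2, 7.81 in C1 and 31.7 in C2 against 30.7 to 60.7 CPM (median 39.4). C2 was inside the WT range and B2 just below it. Leaving out C2 moved the log2 fold change from -1.70 ± 0.45 (adjusted p = 0.0458) to -2.30, and the call was lost without any 1 of the other 4 mutant pools. In tmem63a, a mechanosensitive channel gene chosen after its values were seen, mutants held 28.1 CPM in A1, 63.7 in B1, 80.6 in B2, 0 in C1 and 31.7 in C2 and WT pools 76.1 to 206 CPM (median 142), with B2 inside the WT range and C1 at 0 (log2 fold change -1.85 ± 0.43, adjusted p = 0.0237).

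Radial glia, the cells that express cyp19a1b, held 2 DEGs among 25 markers tested (8.0%, against 1.93% of all genes tested). Of these, the Notch target her4.3 was a DEG higher and ndrg2 a DEG lower. DESeq2 called the same 2 genes and limma-voom 0. At an unadjusted p of 0.05 or less 8 were higher (32.0%, against 7.02% of all genes) and 2 lower, cyp19a1b being 1 of the latter, and the median log2 fold change was 0.28 against 0.01 over all genes. For her4.3 the mutants held 46.9 CPM in A1, 66.9 in B1, 62.7 in B2, 102 in C1 and 68.8 in C2 and the WT pools 24.3 to 46.7 CPM (median 36.3). Groups were apart by little, with A1 just above the highest WT pool and C1 the highest (log2 fold change 1.02 ± 0.25, adjusted p = 0.0329). The study left out reads that matched several places, so reads common to close copies of this gene would not be counted. The other DEG, ndrg2, an astroglial gene, was 23.4 CPM in A1, 28.7 in B1, 35.8 in B2, 35.2 in C1 and 31.7 in C2 in mutants and 45.2 to 91.8 CPM (median 64.2) in WT pools, and no mutant pool reached the WT range (log2 fold change -1.15 ± 0.31, adjusted p = 0.0471). The Notch target genes her4.1 (log2 fold change 0.57 ± 0.24, adjusted p = 0.247) and her6 (0.57 ± 0.26, adjusted p = 0.299) were not DEGs. The abundant markers glula, which makes glutamine (0.27 ± 0.26), and fabp7a, which binds fatty acids (0.59 ± 0.28), overlapped between the groups. The summed share of the list was 2.64 to 3.54% of UMIs in mutants and 1.73 to 2.88% in WT pools. The proliferation list held 0 DEGs in edgeR's test among 15 genes (1 higher and 1 lower at an unadjusted p of 0.05 or less), with pcna, a marker of dividing cells, at a log2 fold change of -0.12 ± 0.18.

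The lists for glutamate and for GABA and glycine held 1 DEG each (5.3% and 7.1%, against 1.93% of all genes tested). Most of their calls at an unadjusted p were lower in mutants. Of 19 genes of glutamate receptors and the excitatory synapse, nlgn1 was a DEG lower, 8 were lower (42.1%, against 7.91% of all genes tested) and 1 higher at an unadjusted p of 0.05 or less, and the median log2 fold change was -0.61. DESeq2 called grm4 and gave nlgn1 no adjusted p (unadjusted p = 3.99e-04), while limma-voom called nlgn1 alone. Below the threshold in edgeR's test but with pools apart were grm4, a metabotropic glutamate receptor (23.4, 22.3, 35.8, 27.3 and 26.4 CPM in A1, B1, B2, C1 and C2 against 36.3 to 97.1 CPM (median 63.5), log2 fold change -1.25 ± 0.35, adjusted p = 0.0558), and slc17a6a, a vesicular glutamate transporter (-1.07 ± 0.40, adjusted p = 0.186). Both were chosen after their values were seen, as was the synapsin gene syn2b (-0.93 ± 0.27, adjusted p = 0.0679). Of 14 genes of GABA and glycine transmission, 4 were lower (28.6%) and 2 higher (14.3%, against 7.02% of all genes) at an unadjusted p of 0.05 or less. The median log2 fold change was -0.18, and gabra4, a GABA-A receptor subunit, was a DEG lower. Its mutant pools held 79.7 CPM in A1, 92.4 in B1, 71.6 in B2, 93.7 in C1 and 106 in C2 and its WT pools 116 to 216 CPM (median 188). All mutant pools were below all WT pools and close together (log2 fold change -0.94 ± 0.21, adjusted p = 0.0198), although the call was lost without A1 or B1. The abundant GABA synthesis gene gad2 gave -0.41 ± 0.22 (adjusted p = 0.413).

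Among 21 genes of newborn and maturing neurons, nrn1a, which encodes neuritin, was a DEG lower, and 1 was higher and 3 lower at an unadjusted p of 0.05 or less (median log2 fold change -0.14). That is 4.8% DEGs, 4.8% higher and 14.3% lower, against 1.93%, 7.02% and 7.91% of all genes tested. The nrn1a values were 145 CPM in A1, 252 in B1, 152 in B2, 125 in C1 and 122 in C2 in mutants and 219.7 to 338 CPM (median 303) in WT pools, and B1 alone reached the WT range (log2 fold change -0.88 ± 0.23, adjusted p = 0.0471). Of 23 activity-dependent genes, which neurons switch on when they fire, 0 were DEGs in edgeR's test or with DESeq2. At an unadjusted p of 0.05 or less 7 were lower (30.4%, against 7.91% of all genes tested) and 0 higher (against 7.02%). The median log2 fold change of the list was -0.30. Among the 7 were the transcription factor genes npas4a (-1.11 ± 0.43, adjusted p = 0.209) and egr3 (-1.03 ± 0.39, adjusted p = 0.191) and the neurotrophin gene bdnf (-0.79 ± 0.33, adjusted p = 0.253). In all 3 genes WT pool A2 was the highest of its group and stood apart from it.

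Neuropeptides of the hypothalamus gave 0 DEGs in edgeR's test, among 18 tested for feeding and arousal (0 at an unadjusted p of 0.05 or less, median 0.20) and 12 tested for reproduction and social behavior (2 higher and 0 lower, median 0.25), and 0 with DESeq2. Over all genes tested, 1.93% were DEGs, and 7.02% were higher and 7.91% lower at that p. Lists this short can hold 0 DEGs at such a share, so nothing is read from the 0 DEGs of the lists described here. The abundant adcyap1b, which encodes PACAP, had a log2 fold change of -0.09 ± 0.17, the CART peptide gene cart2 0.33 ± 0.22 and the enkephalin precursor gene penka 0.45 ± 0.20. Hypothalamic transcription factors (19 tested, 2 higher and 0 lower at that p), genes of steroid synthesis and reception (14 tested, 0 higher and 2 lower), of monoamine pathways (7 tested, 0 higher and 2 lower), of the CRH stress axis (12 tested, 1 higher and 2 lower), of thyroid hormone (6 tested, 0 higher and 2 lower) and of the circadian clock (19 tested, 3 higher and 2 lower) held 0 DEGs. Genes of synaptic vesicles and release (24 tested, 4 higher and 6 lower at that p) held 0 in edgeR's test and 3 with DESeq2, rab3ab, syn2b and napgb. Markers of oligodendrocytes (14 tested, 0 at that p), microglia (12 tested, 2 higher), endothelium (11 tested, 0 at that p) and ependyma (4 tested, 1 lower) also held 0. In the lists of this kind from the neuropeptides to ependyma, limma-voom called only onecut1, a hypothalamic transcription factor gene higher in mutants, and DESeq2 only the 3 vesicle genes. The names onecut1 and napgb were chosen after their values were seen.

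Signaling and stress lists held single calls that are described with their genes above. A single call made up 5.9% of the axon guidance, 7.7% of the insulin-like growth factor and 3.4% of the chaperone list, against 1.93% over all genes tested. In lists this short nothing is read from 1 call. At an unadjusted p of 0.05 or less, 7.02% of all genes were higher and 7.91% lower. Of 17 axon guidance genes robo2 was the DEG (1 higher and 3 lower at an unadjusted p of 0.05 or less, median log2 fold change -0.30), of 13 genes of the insulin-like growth factor system eif4ebp1 (3 higher and 1 lower, median 0.08) and of 29 heat shock proteins and chaperones dnajc2 (1 higher and 2 lower, median 0.04). DESeq2 and limma-voom also called robo2 and eif4ebp1, while dnajc2 was not called by limma-voom and had no adjusted p in DESeq2. Of 16 genes of cholesterol synthesis (1 higher and 1 lower at that p) and 5 of neurotrophins and their receptors (0 higher and 1 lower), 0 were DEGs in edgeR's test, with DESeq2 or with limma-voom.

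Other genes that the study's text names for males or for the hypothalamus were not DEGs. The Rab3 genes of synaptic vesicles gave 0.39 ± 0.21 for rab3aa (adjusted p = 0.439) and -1.49 ± 0.42 for rab3ab (adjusted p = 0.0558). The latter was 32.8 CPM in A1, 22.3 in B1, 26.9 in B2, 46.9 in C1 and 31.7 in C2 in mutants against 32.5 to 131 CPM (median 94.7), with C1 and A1 inside the WT range, and was a DEG under 4 of the 12 alternatives that could test it. The monoamine oxidase gene mao gave -0.49 ± 0.24, ldb2b -1.40 ± 0.48, tpra1 -1.49 ± 0.71 and ranbp3b 1.09 ± 0.54, with adjusted p from 0.152 to 0.343. The Slit ligand gene slit1b was 0 CPM in A1, 41.4 in B1, 8.96 in B2, 0 in C1 and 0 in C2 in mutants against 5.78 to 33.1 CPM (median 20.0), so that its log2 fold change of -0.59 ± 0.64 became -3.56 without B1 (adjusted p = 0.0692). A further 5 genes had too few UMIs for the fit, among them the tyrosine hydroxylase genes th, with 0 to 3 UMIs in mutants and 1 to 6 in WT pools, and th2, with 0 to 6 and 3 to 11. With exact permutation (two-sided) of log2(CPM + 1) values, p was 0.649 for th, 0.0866 for th2, 1 for comta, 0.797 for comtb and 0.545 for tmem232, with Benjamini-Hochberg adjusted values over these 5 genes of 0.433 or more. In comta and tmem232 all mutant pools held 0 UMIs and WT pools at most 3 and 2, so the test could not show a difference in them. In th, th2 and comtb a difference was not detected.

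The fold change in mutant females had the same sign as in males in 102 of the 125 male DEGs (81.6%, against 58.9% of all genes tested), and it had the opposite sign in the genes of the men1 profile. Of the 125, 44 were ribosomal genes, which shifted as a set, so 81.6% is not a share of independent genes. Female libraries held 78533 to 348901 UMIs in mutants and 460620 to 795858 in WT pools. Genotype and depth cannot be told apart in females either. The test of the difference between the male and the female effect passed in 132 genes at an adjusted p of 0.05 or less (2.04%), of which 13 were male DEGs. The male effect was the more positive in 125 of the 132, and 112 of them were DEGs lower in mutant females (3.06% of all genes tested were). For men1, mutant females were below all WT females, at 66.3 CPM in A1, 67.2 in A2, 66.4 in B1 and 85.7 in C1 against 210.8 to 718 CPM. Its log2 fold change was 2.05 ± 0.37 in males and -2.65 ± 0.49 in females, a difference of 4.70 (adjusted p = 1.63e-04), and robo2, stab1, tlr19 and gstm.3 also passed (differences 3.09 to 4.42). Further male DEGs with a difference between the sexes were stac3, gyg1a, lin7c and polr1b, and, outside the rule for named genes, idh3a, tmem170a, znf346 and caly. In stac3, females had 11.1 CPM in A1, 5.17 in A2, 0 in B1 and 2.86 in C1 in mutants and 1.34 to 45.2 CPM in WT pools, so that 4 of the 6 WT female pools lay above all WT male pools.

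In females the actn4 profile was low in every mutant pool, with actn4 at 166 CPM in A1, 114 in A2, 169 in B1 and 194 in C1 against 2316 to 4632 CPM in WT pools. The difference between the sexes was 3.46 (adjusted p = 0.0145), and without mutant male pool B1 it was 2.47 (adjusted p = 0.0548). Ribosomal genes gave 0 of 82 DEGs in mutant females and a median log2 fold change of -0.30, and 0 of them differed between the sexes at an adjusted p of 0.05 or less (21 at an unadjusted p). Their summed share was 8.26 to 9.90% of UMIs in mutant and 8.03 to 11.99% in WT females. DEGs of both sexes with the same direction included fubp1 and LOC100331190, and those with opposite directions were men1, robo2, stab1, tlr19 and gstm.3, while 3.56% of all genes tested were DEGs in females.

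Between regions, the male effect in the hypothalamus was compared with the mean of its effects in the OB and the Tel, where the 3 regions came from the same pools of fish. Of 5335 genes tested, 0 differed at an adjusted p of 0.05 or less (0.0%), and 247 passed at an unadjusted p (4.63%). Of the 125 DEGs, 119 could be tested, and 24 passed at an unadjusted p, but they were chosen on their effect in the hypothalamus, so nothing is read from that share. The lowest adjusted p was 0.230. The 5 DEGs with the lowest unadjusted p were acsl1a, which activates fatty acids, camkvb, gstm.3, wdr61 and zc3h11a. In acsl1a, mutants held 169 CPM in A1, 153 in B1, 259.7 in B2, 66.4 in C1 and 143 in C2 and WT pools 47.0 to 84.8 CPM (median 75.1) in the hypothalamus, with C1 alone inside the WT range, and in the Tel 96.5 to 231 CPM and 98.0 to 166 CPM (difference between regions 1.36 on the log2 scale). The 98.0 CPM in the Tel was that of WT pool B2, with 4 UMIs. The ribosomal share in males was 5.25 to 8.62% in mutants and 7.79 to 10.8% in WT pools in the Tel, and 17.0 to 19.7% and 17.4 to 24.3% in the OB. In the Tel B1 was the lowest and C1 the highest of the mutant pools, and in the OB B1 was the lowest and B2 the highest.

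Of 53 tested genes within 100 protein-coding genes of cyp19a1b in the assembly GRCz12tu, 2 were DEGs, cat and wdr61 (3.77% against 1.93% of all genes tested). The catalase gene cat, chosen after its values were seen, was 149.9 CPM in A1, 82.9 in B1, 179 in B2, 102 in C1 and 196 in C2 in mutants and 53.6 to 91.4 CPM (median 73.7) in WT pools. Mutant B1 lay inside the WT range and the other 4 above it (log2 fold change 0.93 ± 0.23, adjusted p = 0.0300). For wdr61, a subunit of the transcription-elongation complex PAF1, mutants held 272 CPM in A1, 214 in B1, 134 in B2, 137 in C1 and 227 in C2 and WT pools 60.3 to 128 CPM (median 108), without overlap (log2 fold change 0.96 ± 0.22, adjusted p = 0.0243).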

How the data were processed

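The authors deposited counts of UMIs per gene, 1 column per library, from BRB-seq of pools of 3 fish. The submitters' processing notes name BWA 0.7.4.4 and the zebrafish build danRer11. The study describes an rlog transformation, a fold step and then limma. Here rlog values and limma were run as 1 alternative, with p adjusted over 7866 detected genes and the fold step applied afterwards. That order differs from the study's, so this alternative is not a rerun of its procedure.

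Counts were analysed as deposited, in R 4.3.3 with edgeR 4.0.16 (TMM scaling, filterByExpr, quasi-likelihood test, Benjamini-Hochberg adjustment), on the 21 libraries of the hypothalamus in 4 groups. Of 15418 genes in the table, 6463 were tested. DEGs differed by 1.5-fold or more at an adjusted p of 0.05 or less. CPM were computed on the TMM-scaled total. Differences between sexes and regions were tested as interactions, the latter in 33 male libraries, blocked by pool. Genes under the filter were tested with exact permutation of log2(CPM + 1). The hypothalamus fit was tested on simulated data, for the male comparison only. It recovered 52 of 100 genes changed 2-fold and 88 of 100 changed 4-fold, with 7 false calls. A gene that was not called may therefore still differ. Alternatives used DESeq2 1.42.0, limma 3.58.1, other scalings, filters, samples, blocks and depths, and left out each pool in turn. Alternatives for the count of ribosomal genes were added after seeing the data. Replicate pools differed by more than sampling noise in all 25 pairs compared, so each library counted once.

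Genes were named by a rule: cyp19a1b, the 10 largest rises and falls whose pools did not overlap, DEGs on a list (for the ribosome, examples), abundant members of lists, genes the study's text names, the DEGs that moved most or stayed when a pool was left out, and those with the lowest p of an interaction. A few genes that the rule names are not reported here. Exceptions are marked as chosen after their values were seen. The comparison, the rule and the lists were chosen with earlier results of these data known. In the assembly GRCz12tu, 6416 of the tested genes matched by name, used only for gene order.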

Additional observations from a re-analysis of the deposited data

Results flagged for a closer look

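In a check for single pools far from their group (Dixon's test on CPM), 20 of 168 pairs of a named gene and a group were set apart. Chance gives about 1 in 20 in unselected, independent genes. These genes were named partly from the same pool values and some move together, so nothing is read from that share. Among mutant pools, C1 stood above the others in rpl38 (191 CPM), rps29 (437 CPM), rps21 (562 CPM), eif3d (320.3 CPM) and naca (1019 CPM). Mutant A1 stood below the others in grin1a (18.7 CPM), zgc:77398 (0 CPM) and itm2ca (0 CPM). In zgc:77398 and itm2ca the other mutant pools held only 1 to 3 UMIs, so nothing is read from A1 there, although both are among the 20. Mutant B1 was set apart upward in nrn1a (252 CPM) and slit1b (41.4 CPM), and mutant C2 downward in syn2b (122 CPM). Among WT pools, A2 was the highest in bdnf (200.3 CPM), npas4a (350.0 CPM), egr3 (70.8 CPM) and camkvb (89.0 CPM) and the lowest in stac3 (0 CPM). For stac3 the other WT pools held only 1 or 2 UMIs, so nothing is read from A2 there either. The remaining WT pools set apart were C2 in rnf13 (15.02 CPM), B1 in scp2a (24.8 CPM) and C1 in her6 (79.6 CPM) and mfge8b (391 CPM).

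Among the named genes that were DEGs in males, 9 had a genotype effect that differed between males and females in the hypothalamus by edgeR's quasi-likelihood test of the interaction (adjusted p of 0.05 or less). Of all 6463 genes tested, 132 passed (2.04%). The rule for named genes used the p of this interaction, so nothing is read from the count of 9. The male effect minus the female effect, on the log2 scale, was 6.37 for stac3, 4.70 for men1, 4.42 for stab1, 4.32 for gstm.3, 4.07 for tlr19, 3.09 for robo2, 2.42 for gyg1a, 1.71 for lin7c and -2.25 for polr1b.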

How the results depend on the processing

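The count of DEGs was within 1.5 times of 125 with DESeq2 (158, with 117 of the 125, 7 without an adjusted p and 1 not called), RLE scaling (124), library totals (99), no filter (132), at least 10 counts in every male library (114), no fold threshold (128) and limma-voom with sample quality weights (134). It was 66 with only the 11 male libraries, 39 with all 12 groups, 45 with counts thinned, 25 with rlog values and limma, 197 when the letter of the pool was a block, and 0 with low-total libraries left out (699 at an unadjusted p of 0.05 or less). In that order, DEGs higher in mutants were 20, 14, 16, 6, 64 and 0, against 36. DEGs lower in mutants were 46, 25, 29 and 19 in the first 4 of these and 0 in the last, against 89. Ribosomal genes lower in mutants were 23, 6, 21, 1 and 0 in those 5, against 44. Without a filter 81.1% of DEGs were lower, against 71.2%, and the median log2 fold change over all genes was -0.16. With each pool left out in turn, the counts ran from 21 to 150 for all DEGs, 9 to 47 for those higher, 12 to 103 for those lower, 8 to 61 for ribosomal genes, 77 to 190 for genes that differed between the sexes and 0 to 1 for those that differed between regions. The count for the sexes (132) was 76 with limma-voom. With low-total libraries left out, C1 was the only mutant female library in the fit, so no count for the sexes is given there. The replicate block by pool code gave 155 DEGs, and what a code shared by mutant and WT pools stands for is not given in the sources used here. The deviations of same-coded mutant and WT pools from the group means correlated at -0.15, 0.09, 0.09, 0.36 and 0.24 for A1, B1, B2, C1 and C2, and not every pool correlated best with its own code. By letter of the code, 9 of 10 mutant and WT pairs with the same letter correlated above 0 (-0.15 to 0.39, median 0.15), against 6 of 20 pairs with other letters (-0.38 to 0.19, median -0.13), a hint from the data and not from the design. Among named genes that were not DEGs, the log2 fold change reversed with low-total libraries left out in ranbp3b (-0.60), slit1b (0.26) and pcna (0.024), and with counts thinned in pcna (0.15). Named DEGs kept their call in 492 fits under these alternatives and lost it in 194, and with a pool left out kept it in 356 and lost it in 216, with no reversal in either. The cause of these changes was not tested. Depth limited low genes most, since 3 UMIs were worth up to 26.9 CPM.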
